A study of Zea mays with 9 samples.

Results

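The comparison described here is that of nitrate-supplied with nitrogen-deprived primary root apexes of the maize inbred line B73. Nitrate is taken up by proton-coupled transporters, reduced in the cytosol to nitrite by nitrate reductase and in the plastid to ammonium by nitrite reductase, which takes its electrons from ferredoxin, and the ammonium is then bound to glutamate by glutamine synthetase. In roots the reduced ferredoxin is regenerated from NADPH by a ferredoxin-NADP reductase, and the NADPH comes from glucose-6-phosphate that is imported into the plastid. Nitrate is also a signal that is known to act on the transcription of the genes of this pathway. The root apex holds the root cap, the dividing cells of the meristem and the expanding cells behind it, in which the cell wall is loosened and then stiffened, in part by peroxidases.

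Seedlings were germinated on wet filter paper in the dark for 3 days and then kept for 24 h in a solution without nitrogen, a step that all groups shared. They were then moved for 24 h to a solution without nitrogen (-N, 3 samples), with 1 mM nitrate given as KNO3 (3 samples) or with 1 mM ammonium given as NH4Cl (3 samples). Each sample was a pool of seedlings, of 10 to 15 in the series record, while the methods of the study give another number, and polyA RNA of the apexes was sequenced. Nitrate came with potassium as its counterion, and whether the -N solution was given the same amount of potassium is not given in the sources used here, so a part of the potassium in any difference cannot be told apart from that of nitrate.

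The values are RPKM (reads per kilobase of transcript, scaled to the size of the library), estimated with Cuffdiff as a single value per condition over its samples. No spread between samples can be had from such values, so no difference below was tested, and each is a description of the pooled values. The comparison takes in the identifiers with at least 1 RPKM after nitrate or in -N, which were 21290 of the 45260 in the table. A further 10348 were above 0 but below 1 RPKM in both conditions and 13622 were listed at 0 in both. The minimum does not fall in a gap, since 332 identifiers had their higher value between 0.9 and 1 RPKM and 311 between 1 and 1.1. Higher and lower mean below that the log2 ratio of nitrate to -N was above 0.58 or below -0.58, a fold of about 1.5. The study used the same fold, but it also required a limit on the false discovery rate, which cannot be had from the pooled values. Its counts therefore differ from those below, and among the genes it called for nitrate more were lower than higher. In whole apexes, fewer cells of a type and less RNA per cell cannot be told apart.

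By this threshold 2532 identifiers (11.9%) were higher and 1163 (5.46%) were lower after nitrate, and these shares are the background against which the counts of the gene lists have to be read. Among the higher ones 86 had 0 RPKM in -N, and among the lower ones 57 had 0 RPKM in nitrate. They were counted by direction without a ratio. The median log2 ratio over all was 0.04. The RPKM of all gene models summed to 816363 after nitrate and 816095 in -N.

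The share of gene models past the threshold depended on their level. Of the 3413 gene models with a mean of 1 to 3 RPKM over both conditions and values above 0, 24.4% were higher and 9.38% lower after nitrate, and 90% of their log2 ratios lay between -0.96 and 1.43. Of the 6195 with a mean of 10 to 30 RPKM, 5.17% were higher and 2.84% lower. Among the 420 with 300 RPKM or more, 10 were higher and 11 lower. The surplus of higher over lower gene models therefore lay mostly among those of low level. Below a mean of 10 RPKM, 1804 were higher and 735 lower with a median log2 ratio of 0.13, and at 10 RPKM or more 500 were higher and 329 lower with a median of -0.00. The group below 10 RPKM takes in 566 gene models with a mean of 0.5 to 1 RPKM. To reach 1 RPKM in a condition these must have unequal values, so the minimum itself raises their share past the threshold. The number of reads behind a value is unknown, and its part in the wide ratios of the low genes was not tested.

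**Figure D1:**
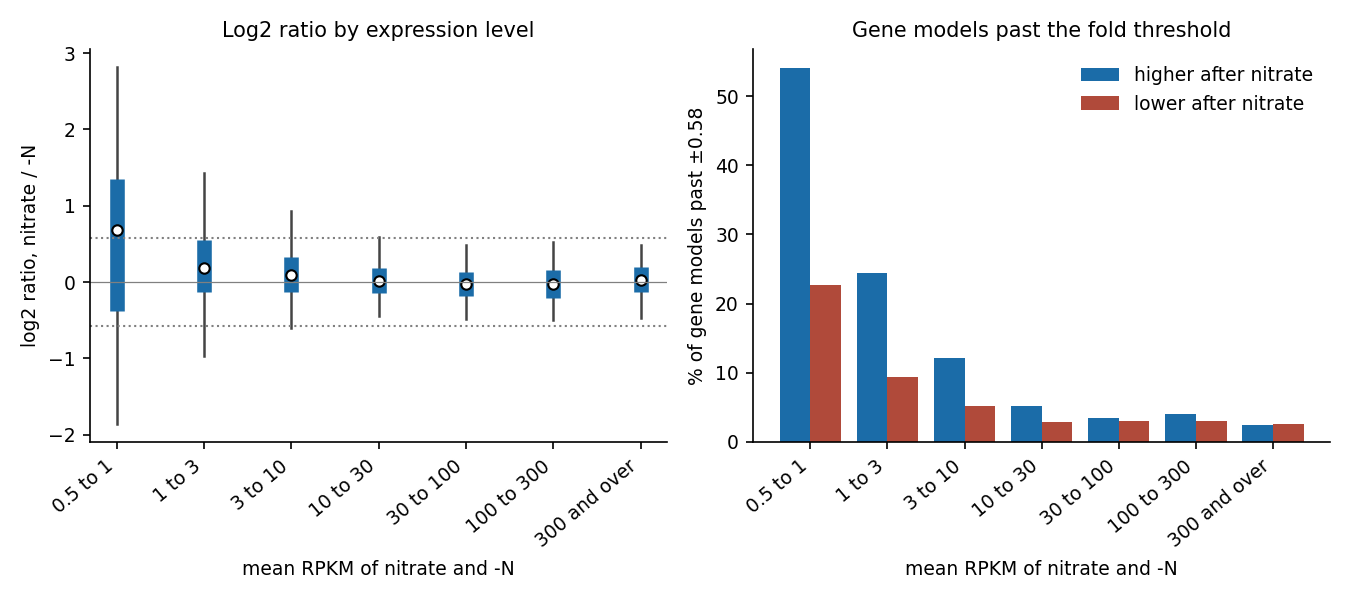
Left, log2 ratio of nitrate to -N (vertical axis) of gene models above 0 in both conditions, in bins of mean RPKM (horizontal axis), with the median as a circle, the middle 50% as a bar and the 5th to 95th percentile as a line, and dotted lines at 0.58 in both directions. Right, the percentage of each bin higher or lower than the threshold, which were 24.4% and 9.38% at 1 to 3 RPKM and 2.38% and 2.62% at 300 RPKM and over. In the bin of 0.5 to 1 RPKM (54.1% and 22.6%) the minimum of 1 RPKM in a condition leaves only unequal values, which raises these shares.

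The genes of nitrogen transport and metabolism, which are listed in the study's supplement, split by role. Of the 15 genes, 9 were higher after nitrate, 4 were lower and 2 lay within the threshold. Of the 14 that reached 1 RPKM, 9 were higher and 3 lower, beside 11.9% higher and 5.46% lower among all identifiers with that minimum. The study chose its lists on these same samples, so the direction of a list is no independent evidence, here and in all lists that follow. The enzymes that reduce nitrate and nitrite were at their lowest in -N. Ferredoxin-nitrite reductase (Zm00001d018161) was listed at 16.3 RPKM after nitrate and 0.820 in -N, a 19.9-fold higher level (log2 ratio 4.32). Nitrate reductase (Zm00001d049995) stood at 1.77 after nitrate and 0.291 in -N (log2 ratio 2.60), both low levels. Another gene described as a nitrate reductase (Zm00001d017025) was below 1 RPKM in both conditions, at 0.219 and 0.109.

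The genes that supply the reduction with electrons and sugar phosphate were higher as well. Ferredoxin VI (Zm00001d038291) stood at 37.2 RPKM after nitrate and 10.1 in -N (log2 ratio 1.88), and the root ferredoxin-NADP reductase (Zm00001d034345) at 110.2 and 52.3 (1.08). The translocator that brings glucose-6-phosphate into the plastid (Zm00001d021653) stood at 3.55 and 0.996 RPKM (1.83). A plain ferredoxin (Zm00001d021141, 13.6 and 4.18 RPKM, log2 ratio 1.70) and a 2Fe-2S ferredoxin-like protein (Zm00001d006119, 10.9 and 3.15 RPKM, 1.79), both in the hormone list of the study, had ratios close to that of ferredoxin VI. All 4 genes described as ferredoxin or ferredoxin-NADP reductase were thus higher, against 11.9% of all identifiers. The glutamine synthetase of the list (Zm00001d026501), described as the plastid isozyme, stood at 13.6 RPKM after nitrate and 4.93 in -N (1.46).

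Hemoglobin 1 (Zm00001d048020) had the largest RPKM of the 15 genes after nitrate. Plant hemoglobins of this non-symbiotic kind bind oxygen tightly and are known to oxidise nitric oxide to nitrate. Hemoglobin 1 was listed at 301 RPKM after nitrate and 33.1 in -N, which is 9.07-fold higher (log2 ratio 3.18). Hemoglobin 2 (Zm00001d038718) stood at 5.72 and 0.313 RPKM (4.19), and the hemoglobin-like protein HbO (Zm00001d046472) at 39.5 and 27.8 RPKM (0.51), within the threshold. Of the 2 non-symbiotic genes, the one of the far lower level thus had the larger ratio.

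The transporters did not share a direction. ZmNRT1a (Zm00001d029932) stood at 27.4 RPKM after nitrate and 17.8 in -N, a log2 ratio of 0.62 that lies close to the threshold, and ZmNRT1b (Zm00001d036941) at 1.58 and 1.29 (0.30). Ammonium transporters were lower after nitrate in 3 of the 4 genes listed, against 5.46% of all identifiers. ZmAMT1;1a (Zm00001d025831) stood at 3.91 RPKM after nitrate and 8.72 in -N (-1.16). Of the 3 genes described as ammonium transporter 2, Zm00001d034782 stood at 2.95 and 8.57 RPKM (-1.54), Zm00001d017249 at 0.645 and 2.81 (-2.12) and Zm00001d016771 at 4.319 and 3.899 (0.15). The 4 ammonium transporters summed to 11.8 RPKM after nitrate and 24.0 in -N. The urea-proton symporter DUR3 (Zm00001d037242) was below 1 RPKM in both, at 0.144 after nitrate and 0.666 in -N.

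**Figure D2:**
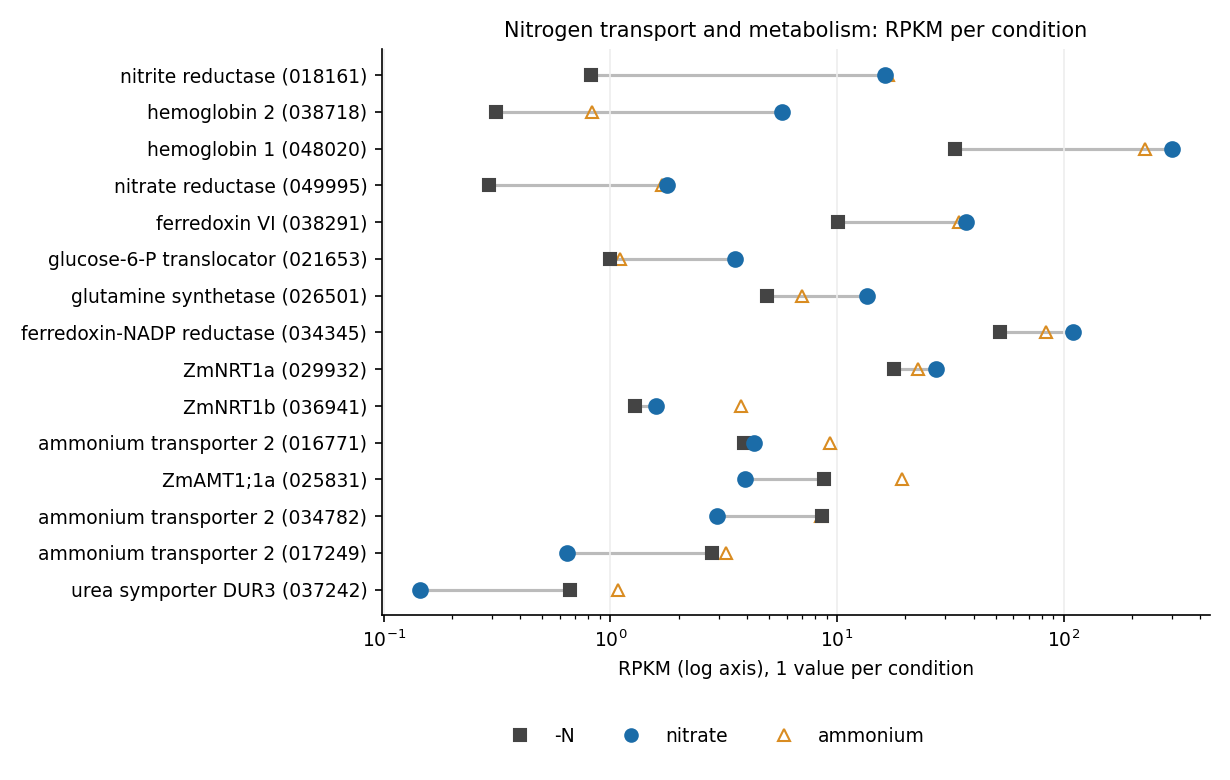
RPKM (horizontal log axis) of the 15 genes of nitrogen transport and metabolism in -N (squares), after nitrate (circles) and after ammonium (open triangles), with 1 pooled value per condition, the last digits of the identifier in brackets and a grey line between -N and nitrate. Nitrite reductase stands at 0.820 in -N and 16.3 after nitrate, and the circles lie left of the squares only in 3 ammonium transporters and DUR3.

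The ammonium samples share the -N control with this comparison, so their values are only set beside these. Nitrite reductase was listed at 16.7 RPKM after ammonium, nitrate reductase at 1.69, hemoglobin 1 at 229 and ferredoxin VI at 34.6, each close to its level after nitrate. Hemoglobin 2, at 0.830 RPKM, and the glucose-6-phosphate translocator, at 1.11, were closer to -N. ZmAMT1;1a stood at 19.4 RPKM after ammonium, above both other conditions.

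The apoplast list, the study's set of genes for the space of the cell wall, held 9 genes that were all higher after nitrate (median log2 ratio 0.91), against 11.9% of all identifiers. A dirigent protein, of a family that guides the coupling of phenoxy radicals in lignan and lignin formation, had the largest ratio of the described genes with values above 0 in both conditions. This gene (Zm00001d052585) was listed at 46.7 RPKM after nitrate and 1.53 in -N, 30.5-fold higher (log2 ratio 4.93), and at 1.45 after ammonium. Other dirigent genes of the list stood at 44.8 and 25.3 RPKM (Zm00001d005472, 0.82) and at 19.6 and 8.08 RPKM (Zm00001d047775, 1.28). A further dirigent gene (Zm00001d048814), in the list of secondary metabolism, went the other way, at 1.21 RPKM after nitrate and 4.33 in -N (-1.84).

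Enzymes that cut wall polysaccharides made up most of the rest of the apoplast list and of the 2 genes of the polysaccharide binding list, of which lichenase-2 is in both. The beta-galactosidases Zm00001d046357 (52.4 and 32.8 RPKM after nitrate and in -N, log2 ratio 0.67) and Zm00001d053585 (7.21 and 4.36, 0.73) and the auxin-induced beta-glucosidase Zm00001d048669 (9.67 and 5.14, 0.91) were higher. So were lichenase-2 (Zm00001d038049), at 19.8 and 10.4 RPKM (0.92), and a glucan endo-1,3-beta-glucosidase (Zm00001d043361), at 38.7 and 24.2 RPKM (0.68). These 5 ratios lay within a narrow range, from 0.67 to 0.92. The last members were a mannitol dehydrogenase (Zm00001d004443, 2.80 and 0.974 RPKM, 1.52) and a peroxidase (Zm00001d052336, 60.2 and 39.95 RPKM, 0.59).

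Peroxidases were the most numerous family among the described genes that were lower. Class III peroxidases are secreted enzymes that use hydrogen peroxide to cross-link phenolics in the wall and can also form reactive oxygen species. The study's list for the metabolism of reactive oxygen species held 13 genes, 12 of them peroxidases, and all 13 were lower (median log2 ratio -1.65), against 5.46% of all identifiers. The most abundant, Zm00001d040364, was listed at 425 RPKM after nitrate and 889.5 in -N (-1.07), and Zm00001d038598 at 55.4 and 136.7 (-1.30). Zm00001d022283 stood at 6.84 and 62.7 RPKM, 9.16-fold lower (-3.20), and Zm00001d022280 at 5.50 and 39.7 (-2.85). These abundant members span the range from a 2.09-fold to a 9.16-fold lower level.

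The other 8 peroxidases of that list had ratios between -3.70 and -0.75. The most negative was that of Zm00001d028348, at 0.282 RPKM after nitrate and 3.67 in -N, followed by Zm00001d026357 at 0.148 and 1.59 (-3.42), and Zm00001d014603 stood at 0.266 and 1.35 (-2.34). These 3 were below 1 RPKM after nitrate, where ratios vary most. Zm00001d045846 stood at 3.17 and 15.7 RPKM (-2.31), Zm00001d022281 at 3.04 and 9.54 (-1.65) and Zm00001d050572 at 22.99 and 59.5 (-1.37). Zm00001d045845, with 6.19 and 15.9 RPKM (-1.36), and Zm00001d010924, with 17.3 and 29.2 (-0.75), were the nearest to the threshold together with Zm00001d040364 and Zm00001d038598. In sum the 12 genes held 546 RPKM in nitrate, 1265 in -N and 703 in ammonium. Of the 16 genes counted here as class III peroxidases, 13 were lower, 2 higher (Zm00001d052336 and peroxidase 16, Zm00001d014608, at 40.4 and 20.5 RPKM) and 1 within the threshold. Of the 15 that reached 1 RPKM, 12 were lower and 2 higher, beside 5.46% and 11.9% of all identifiers. The peroxisomal ascorbate peroxidase APx3 (Zm00001d025047, 15.8 and 7.62 RPKM, 1.05) was not counted among them. Cuffdiff divides reads that fit several places, so the values of single members of such families are uncertain.

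The remaining gene of the list, dynamin-related protein 1C (Zm00001d033751), which belongs to a family of membrane-remodelling GTPases, stood at 43.5 RPKM after nitrate and 65.8 in -N (-0.60). The cytoskeleton list consisted of 4 tubulins, the subunits of microtubules, and all were lower. Beta tubulin5 (Zm00001d040509) stood at 166 RPKM after nitrate and 365 in -N (-1.14), the alpha tubulins Zm00001d021891 at 392 and 642 (-0.71) and Zm00001d006651 at 165 and 276 (-0.75), and the beta tubulin Zm00001d008216 at 37.6 and 57.2 (-0.61). Together they summed to 761 RPKM after nitrate and 1341 in -N. At their level, of a mean of 30 RPKM or more, between 2.62% and 3.06% of the gene models in a bin were lower.

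**Figure D3:**
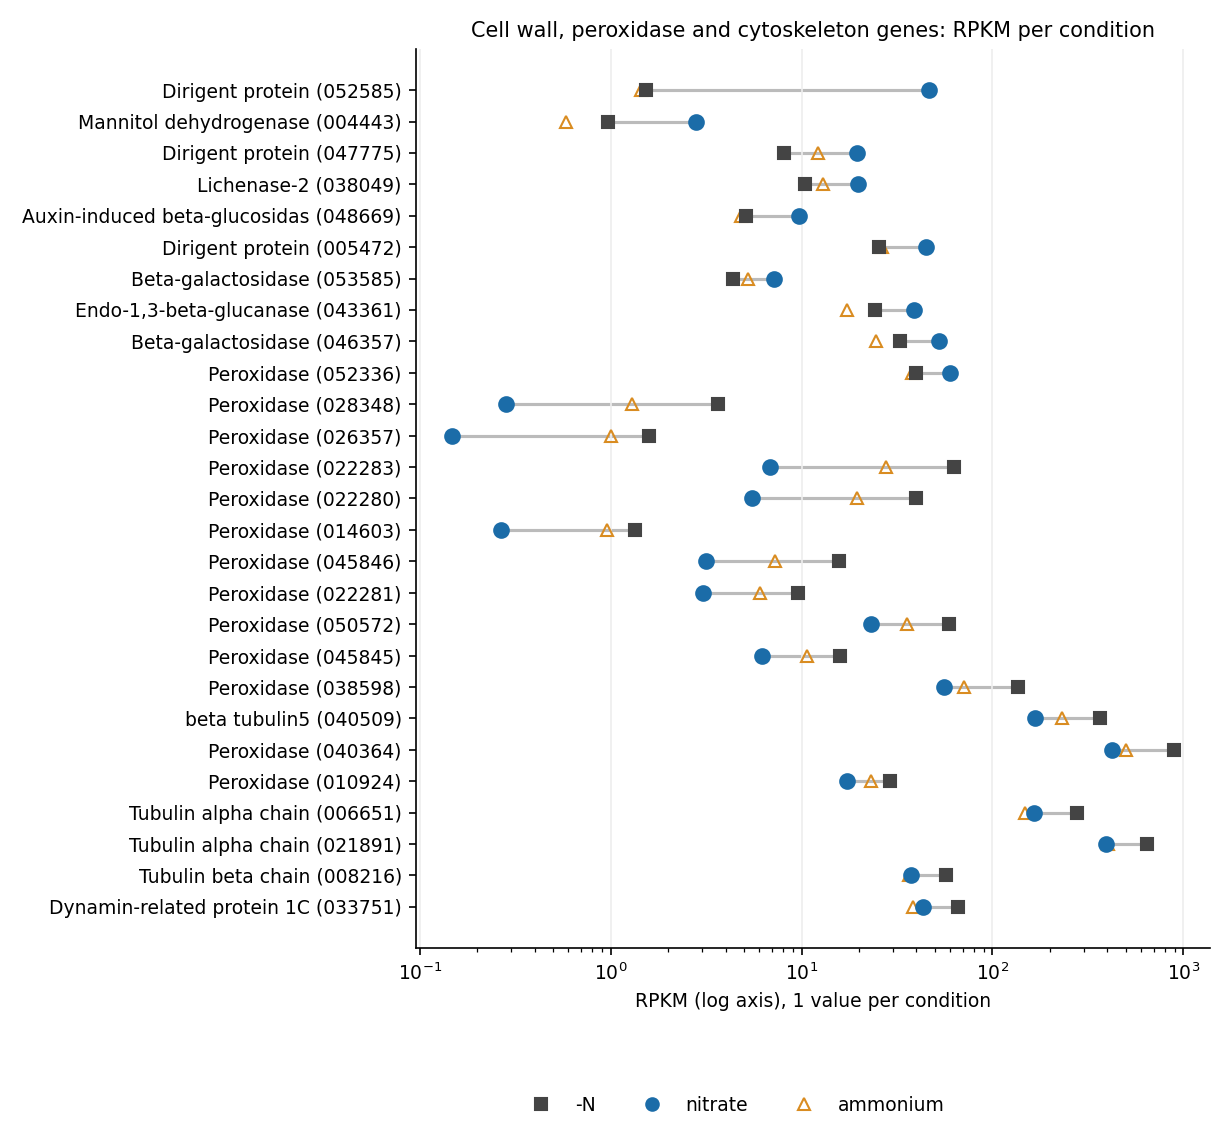
RPKM (horizontal log axis) in -N (squares), after nitrate (circles) and after ammonium (open triangles) of the 10 genes of the apoplast and polysaccharide binding lists (upper rows) and the 17 genes of the reactive oxygen species and cytoskeleton lists (lower rows), with 1 pooled value per condition. The circles lie right of the squares in the upper 10 rows and left of them in the lower 17, from the dirigent gene Zm00001d052585 (46.7 against 1.53 RPKM) to dynamin-related protein 1C (43.5 against 65.8 RPKM).

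Cell markers were set beside these lists. The proliferating cell nuclear antigen (Zm00001d018415), a clamp of DNA replication that marks dividing cells, stood at 72.96 RPKM after nitrate and 78.3 in -N (-0.10), and the fasciata 1-like gene (Zm00001d012166), for a histone chaperone subunit, at 6.89 and 8.13 (-0.24). Both lay within the threshold. SOMBRERO (Zm00001d016119), a NAC factor of the root cap in Arabidopsis, stood at 4.77 RPKM after nitrate and 1.17 in -N (2.02). It was taken from a list of genes that the study describes as raised by both forms of nitrogen. The 2 markers of dividing cells came from its list of genes lowered by ammonium. All 3 were thus chosen by the study on these same samples, and their direction is no independent sign of cell numbers. Plastid genes summed to 14.5 RPKM after nitrate and 12.6 in -N over 51 identifiers, of which 5 reached 1 RPKM. PolyA libraries may keep plastid RNA poorly, so these sums give no measure of green tissue. The part of a different share of root cap or of expanding cells in the peroxidase, tubulin and wall lists was not tested.

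The list of cation transport held 9 genes, all lower after nitrate (median log2 ratio -0.90), against 5.46% of all identifiers. Of these, 3 were the ammonium transporters given above. Of the other 6, a plasma membrane ATPase (Zm00001d002006), a proton pump that energises uptake, was the most abundant at 272 RPKM after nitrate and 506 in -N (-0.90). The potassium transporters stood at 21.2 and 57.8 RPKM (Zm00001d003861, -1.44), at 6.02 and 10.6 (Zm00001d022485, -0.82) and at 32.5 and 49.2 (Zm00001d020325, -0.60). Nitrate was given as a potassium salt, and for these 3 genes the effects of potassium and of nitrate cannot be told apart. After ammonium, given as a chloride, they stood at 55.7, 14.7 and 44.0 RPKM. A serine/threonine protein kinase (Zm00001d018799, 69.0 and 109.5 RPKM, -0.67) and a calcium-transporting ATPase (Zm00001d023258, 9.10 and 13.7 RPKM, -0.59) were close to the threshold.

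The 9 genes of the secondary metabolism list were all lower as well (median log2 ratio -1.17), against 5.46% of all identifiers. The dirigent gene Zm00001d048814 and the calcium-transporting ATPase were among them. The gene described as multidrug and toxic compound extrusion1 (Zm00001d035115), a transporter linked to aluminum tolerance, was listed at 14.1 RPKM in nitrate, 49.1 in -N (-1.80) and 129.6 in ammonium. Phenylalanine ammonia lyase7 (Zm00001d017279), of the entry step into phenylpropanoids, stood at 2.71 and 6.61 RPKM (-1.29). The flavonoid 3'-hydroxylase red aleurone1 (Zm00001d017077) stood at 4.71 and 10.6 RPKM (-1.17), and heme oxygenase3 (Zm00001d046493), which opens the heme ring, at 5.81 and 12.6 (-1.11). Further members were a gene described as a taxol N-benzoyltransferase (Zm00001d024763, 75.1 and 142.2 RPKM, -0.92), a mannitol dehydrogenase (Zm00001d045043, 28.5 and 50.4 RPKM, -0.82) and an anther-specific proline-rich protein (Zm00001d018791, 0.642 and 2.03 RPKM, -1.66). The mannitol dehydrogenases of the apoplast and of this list thus had ratios of opposite sign.

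The study's hormone response list of clusters 2 and 3, groups of like expression pattern that it describes as raised by both forms of nitrogen, held 81 genes. Of these, 80 were higher and none lower (median log2 ratio 1.16), against 11.9% and 5.46% of all identifiers. Among the 80, 10 had ratios below 0.7. The largest ratio was that of the sugar exporter SWEET15a (Zm00001d050577), at 1.90 RPKM after nitrate and 0.214 in -N (3.15). A pistil-specific extensin-like wall protein (Zm00001d038741) stood at 13.3 and 2.19 RPKM (2.61). A CCR4-associated factor (Zm00001d001774, 2.205 and 0.395 RPKM, 2.48), a DMR6-like oxygenase (Zm00001d002564, 1.59 and 0.301 RPKM, 2.40) and a TIFY 10B protein (Zm00001d005813, 1.58 and 0.322 RPKM, 2.30) followed. All but the extensin-like gene were below 1 RPKM in -N.

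The smallest ratios of the 81 belonged to genes at 17.8 RPKM or more in -N. They were those of HbO and ZmNRT1a, given above, of a DNA binding protein (Zm00001d034160, 38.3 and 25.2 RPKM, 0.60), of phosphoserine aminotransferase 1 of serine synthesis (Zm00001d027727, 67.7 and 43.6 RPKM, 0.63) and of gibberellin-regulated protein 10 (Zm00001d013222, 40.1 and 25.5 RPKM, 0.65).

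Some families of this list, chosen after their values were seen, show how its genes were spread over functions. The 4 MYB-related factors were all higher, against 11.9% of all identifiers. They ranged from the R2R3-MYB Zm00001d022628 at 42.4 and 25.9 RPKM (0.71) to Zm00001d023402 at 1.68 and 0.411 (2.03). The 3 carboxylesterases had ratios from 1.53 to 2.08 at levels below 10 RPKM. The 3 WAT1-related proteins, relatives of a vacuolar auxin transporter of Arabidopsis, stood at 19.9, 12.1 and 19.4 RPKM after nitrate and at 9.48, 6.03 and 9.44 in -N, with ratios from 1.00 to 1.07. Benzoxazinone synthesis13 (Zm00001d007718), of the pathway to the defence compounds of young maize, was also chosen after its value was seen, and stood at 54.6 RPKM after nitrate and 12.4 in -N (2.14).

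SWEET sugar exporters were listed in 3 genes and were higher in each, against 11.9% of all identifiers. Beside SWEET15a, SWEET13a (Zm00001d023677) stood at 23.4 RPKM after nitrate and 14.003 in -N (0.74). A further SWEET gene (Zm00001d015905) stood at 50.5 RPKM in nitrate, 32.3 in -N (0.65) and 14.006 after ammonium.

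The study's lists of cluster 1, the genes it describes as raised by ammonium, were mostly within the threshold after nitrate. They hold 112 different genes, of which 24 were higher, 9 lower and 79 within the threshold, with a median log2 ratio of 0.30. Of the 102 that reached 1 RPKM in -N or nitrate, 19 (18.6%) were higher and 5 (4.90%) lower, beside 11.9% and 5.46% among all identifiers with that minimum. In the hormone list of this set 5 of 36 genes (13.9%) were higher and 1 (2.78%) lower, beside the same 11.9% and 5.46%. All 36 stood at 10.2 RPKM or more in -N. Among gene models with a mean of 10 RPKM or more, 4.40% were higher and 2.90% lower. The higher ones were an AAA-ATPase (Zm00001d019078, 28.8 and 12.7 RPKM, 1.18), peroxidase 16 (0.98), TIFY 10B (Zm00001d022139, 165 and 84.0 RPKM, 0.97), drought-induced 19 (Zm00001d038999, 301 and 185 RPKM, 0.70) and the ACC oxidase 1 of ethylene synthesis (Zm00001d011208, 188 and 115.8 RPKM, 0.70). Lipid phosphate phosphatase 2 (Zm00001d011638) stood at 14.8 RPKM after nitrate and 34.9 in -N (-1.24). The next 4 in order, syntaxin-132 (Zm00001d041716, -0.34), monodehydroascorbate reductase 1 (Zm00001d049954, -0.32), calcineurin B-like5 (Zm00001d044389, -0.19) and NAC domain protein 2 (Zm00001d019207, -0.02), lay within the threshold.

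Of the 69 genes of the biotic stimulus list, 19 were higher and 6 lower. Of the 61 that reached 1 RPKM in -N or nitrate, 14 (22.95%) were higher and 3 (4.92%) lower, beside the same 11.9% and 5.46%. Chitinase B1 (Zm00001d025753), an enzyme that cleaves the chitin of fungal walls, stood at 1.12 RPKM after nitrate and 0.271 in -N (2.04), a major facilitator protein (Zm00001d040468) at 1.92 and 0.715 (1.43), the early response to dehydration 15-like gene (Zm00001d007097) at 10.2 and 4.13 (1.30) and WRKY74 (Zm00001d020136) at 6.21 and 3.08 (1.01). A fatty acid alpha-dioxygenase of oxylipin synthesis (Zm00001d035854) stood at 0.595 and 2.97 RPKM (-2.32), a glycosyltransferase (Zm00001d039642) at 1.54 and 3.98 (-1.37) and a pyruvate decarboxylase of fermentation (Zm00001d008651) at 2.14 and 4.90 (-1.19). None of these was above 10.2 RPKM in either condition, and the TIFY gene of the hormone list was the next of the higher ones that reached 1 RPKM. An ACC oxidase (Zm00001d024853, -0.54) and an ASC1-like protein (Zm00001d017912, -0.33) lay within the threshold.

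Of the 23 genes of the water deprivation list, 5 were higher and 2 lower. Of the 20 that reached 1 RPKM, 4 (20%) were higher and 1 (5%) lower, beside 11.9% and 5.46% among all identifiers. Besides the dehydration 15-like gene, the zinc-finger protein ISAP1 (Zm00001d006016) stood at 9.48 RPKM after nitrate and 4.37 in -N (1.12), a protein kinase (Zm00001d032155) at 4.91 and 3.01 (0.71) and an AP2-EREBP factor (Zm00001d026191) at 2.39 and 1.54 (0.63). Calcineurin B-like 10 (Zm00001d044285, 43.97 and 29.995 RPKM, 0.55) came next. Phospholipase D7 (Zm00001d029397) stood at 1.73 and 4.81 RPKM (-1.48), while an aldehyde dehydrogenase (Zm00001d004731, -0.44), a protein kinase (Zm00001d036879, -0.41), calcineurin B-like 5 and zeaxanthin epoxidase (Zm00001d025545, -0.13) were less than 0.58 below -N.

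**Figure D4:**
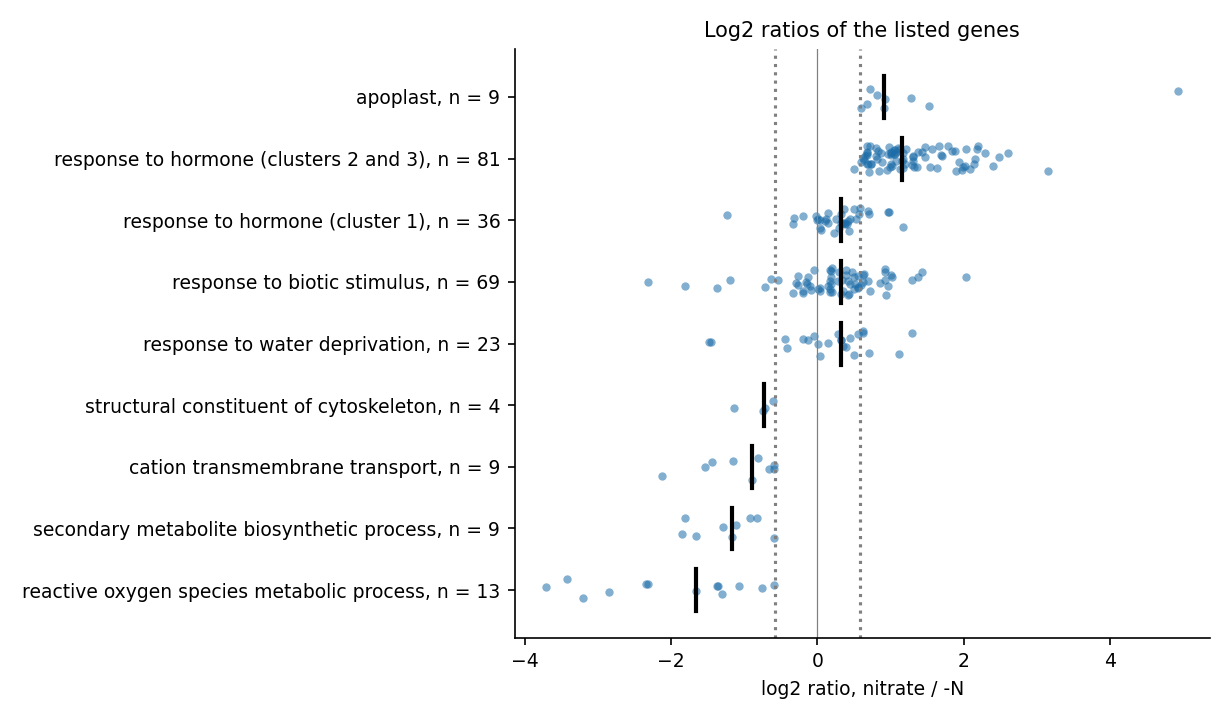
Log2 ratio of nitrate to -N (horizontal axis) of each gene in 9 of the study's lists (rows), 1 point per gene and the list median as a black bar, with dotted lines at 0.58 in both directions and the points spread vertically at random. The medians run from 1.16 in the hormone list of clusters 2 and 3 to -1.65 in the list for reactive oxygen species, and the lists of cluster 1, the genes raised by ammonium, centre near 0.33. One gene listed at 0 in -N is not drawn.

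Most gene models with extreme ratios carry no description in the sources used here. Descriptions were at hand for 250 genes, and 156 of these were among the 3408 gene models past the threshold (4.58%). Of the 11839 gene models with at least 10 RPKM in a condition and values above 0, the 10 with the largest positive ratio lay between 3.15 and 7.05, and 3 of them were described, as a dirigent protein, nitrite reductase and hemoglobin 1. The largest were Zm00001d048644, at 11.1 RPKM after nitrate and 0.0839 in -N, and Zm00001d045843, at 12.5 and 0.124. The 10 with the most negative ratio lay between -4.03 and -2.85, and the described ones were the peroxidases Zm00001d022283 and Zm00001d022280. Zm00001d027511 was the lowest, at 0.675 RPKM after nitrate and 11.04 in -N, followed by Zm00001d041985, at 3.54 and 39.6. The minimum of 10 RPKM in a condition sets a floor for the higher value of each of these genes. The lower value, in -N, lay between 0.0839 and 33.1 RPKM among the 10 largest ratios. Among the 10 most negative the lower value, after nitrate, lay between 0.675 and 17.6 RPKM. By absolute size, the largest difference among gene models was that of an undescribed one listed at 2945 RPKM after nitrate and 5898 in -N.

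Identifiers outside the gene models were past the threshold more often than gene models (11.2% higher and 5.15% lower). Of the 374 ENSRNA identifiers of non-coding RNA with at least 1 RPKM, 167 were higher and 81 lower, and 92 of these 248 were listed at 0 in one of the conditions. Fragments of large subunit ribosomal RNA held most of their signal, with 83406 RPKM after nitrate and 57605 in -N, or 9.11% and 6.50% of the summed RPKM of the table. The 3 identifiers with the largest difference in RPKM were all such fragments, on chromosome 6 of the B73 AGPv4 assembly. They lie at chr6:13473591-13474021 (ENSRNA049478207, 22597 RPKM after nitrate and 14433 in -N), at chr6:13507486-13507764 (ENSRNA049478226, 27056 and 19358) and at chr6:12824695-12824911 (ENSRNA049478221, 16970 and 9282). In polyA libraries ribosomal RNA is a remainder of the selection, and its part in the other differences was not tested.

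Small nuclear and nucleolar RNAs, which guide splicing and the modification of ribosomal RNA and mostly carry no polyA tail, were past the threshold in both directions as well. Of 206 snoRNA identifiers, 94 were higher and 48 lower, with 12641 RPKM summed after nitrate and 9623 in -N. Of 60 spliceosomal snRNAs, 28 were higher and 13 lower. The enod40 RNA (ENSRNA049469775, chr2:31647278-31647471), known from nodule formation in legumes, stood at 580.5 RPKM after nitrate and 373 in -N (0.64). A pair of 5.8S ribosomal RNA copies on chromosome 6, chosen after their values were seen, went opposite ways, at 298 and 70.7 RPKM (ENSRNA049478252) and at 11.2 and 67.3 (ENSRNA049478262). Reads of near-identical copies can be divided differently in each condition, so single copies of these families are uncertain.

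Of the 40 mitochondrial identifiers with at least 1 RPKM, 11 (27.5%) were higher and none lower, beside 11.9% and 5.46% of all identifiers. Their median log2 ratio was 0.41, and the whole mitochondrial set summed to 681 RPKM after nitrate and 494 in -N. The mitochondrial genes carry no names in the source used here, and the part of polyA selection in the values of organelle genes was not tested. Of the plastid genes with a name, rpl14, for a ribosomal protein, stood at 0.546 and 1.02 RPKM (-0.90) and ycf72-1 at 1.98 and 1.15 (0.78), both near the minimum.

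The table lists 29 microRNA genes by a MIR name with at least 1 RPKM, which in polyA libraries are read as primary transcripts and not as mature microRNAs. A further 22 microRNA precursors, 13 of them higher and 7 lower, are counted among the ENSRNA identifiers above. Of the 29 genes, 17 (58.6%) were higher and 8 (27.6%) lower, beside 11.9% and 5.46% of all identifiers, but 11 of the 25 were listed at 0 in a condition. Among gene models with a mean below 10 RPKM, 19.1% were higher and 7.78% lower. Those with the highest RPKM, MIR171f at 74.3 RPKM after nitrate and 133 in -N (-0.84) and MIR169c at 40.3 and 26.9 (0.58), had ratios below 1 in size. MIR171f belongs to a family that targets GRAS factors, and MIR169c to one that targets NF-YA factors. Among the 8 that reached 10 RPKM in a condition, 5 were higher and 1 lower.

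The other higher microRNA genes above 0 in both were MIR159f (11.8 and 0.566 RPKM), MIR156k (11.9 and 2.18, 2.46), MIR396a (7.11 and 2.03, 1.81), MIR169j (6.82 and 1.99, 1.77), MIR393a (8.43 and 3.00, 1.49), MIR160b (13.3 and 4.79, 1.47), MIR395o (1.52 and 0.659, 1.21), MIR166a (3.47 and 1.53, 1.18), MIR319d (1.71 and 0.789, 1.11) and MIR156f (11.7 and 6.02, 0.96). MIR395p, MIR396h, MIR397a, MIR167g, MIR171h and MIR408b were listed at 0 in -N and at 1.21 to 8.83 RPKM after nitrate. On the lower side stood MIR396e (3.81 and 7.77 RPKM, -1.03) and MIR167b (0.00889 and 7.70 RPKM), while MIR156a, MIR162, MIR167e, MIR2275d and MIR396b were listed at 0 after nitrate and at 1.49 to 9.94 RPKM in -N. Members of 1 family, such as MIR396a and MIR396e, thus stood on opposite sides of the threshold.

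**Figure D5:**
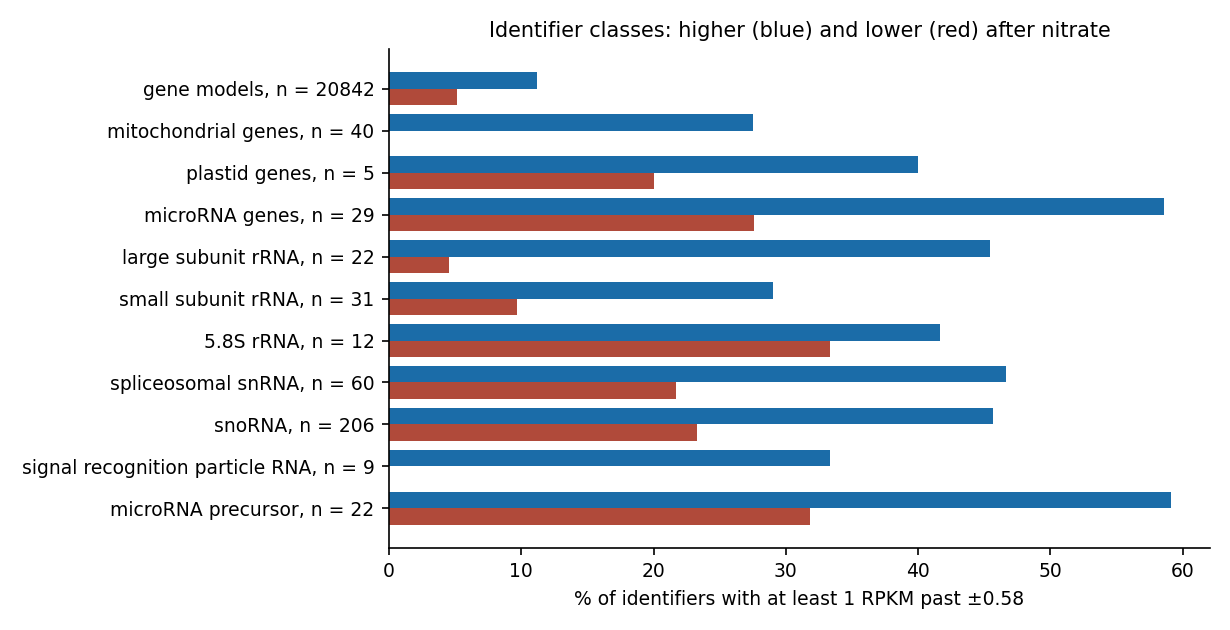
Percentage (horizontal axis) of the identifiers with at least 1 RPKM in each class (rows, with their number) that were higher (blue) or lower (red) than the log2 threshold of 0.58 after nitrate. The gene models have 11.2% higher and 5.15% lower, the microRNA genes 58.6% and 27.6% and the snoRNAs 45.6% and 23.3%.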

How the data were processed

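Per the labels and the methods of the study, RNA of 9 samples (3 per condition) was extracted with TRIzol and made into TruSeq libraries. The authors trimmed reads with Trimmomatic 0.33, mapped them with TopHat2 2.0.13 to B73 RefGen_v4 and ran Cuffdiff of Cufflinks 2.2.1 with upper-quartile normalization and correction for reads of several places. The deposited RPKM values are the authors' estimates, 1 per condition. They come without read counts per gene, and some values lie below 0.001 RPKM, so whole reads were not recovered. The study reports the number of reads of each library, which was not used here.

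Log2 ratios of nitrate to -N were computed without a pseudocount in Python 3.11.15 (numpy 2.4.6, pandas 2.3.3, matplotlib 3.10.9), for identifiers with at least 1 RPKM in either condition. Members of the study's lists were counted without that minimum. With no replicate values, no test was possible. The counting was tested on simulated data. Named genes were all members of lists of 13 or fewer, the 5 highest and lowest ratios of longer lists (at least 1 RPKM), the 10 highest and lowest of gene models with at least 10 RPKM where described (otherwise 2), microRNA genes past 0.58 and named organelle genes past 0.58. Descriptions and AGPv4 loci came from annotation columns of the study's supplements, whose values were not used. The RefSeq table given pairs no names with these gene models. Members and lists were chosen with earlier results of these data known. Alternatives were pseudocounts of 0.1 and 1, no minimum, a minimum of 5 RPKM, 3 scalings (median ratio, total, upper quartile), no ENSRNA identifiers and a threshold of 1.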

Additional observations from a re-analysis of the deposited data

How the results depend on the processing

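Each condition had 1 pooled value, so leaving out single samples could not be run and no call could be set against replicate error. No paired analysis was possible because the columns carry no replicate number. Read counts per gene were unknown, and the read totals that the study reports per library were not used. A minimum of 5 RPKM left 1179 identifiers higher and 633 lower (gene models 1039 and 574), 53 ENSRNA lower, 10 microRNA and 3 mitochondrial genes higher, 2 nitrogen genes lower, and in the ammonium lists 7 biotic stimulus genes higher and 0 lower and 2 water deprivation genes higher and 0 lower, since fewer identifiers reached 5 RPKM. Without a minimum the counts were 7089 and 3931 (gene models 6840 and 3799), and 33 mitochondrial genes were higher and 20 lower. With a threshold of 1, 1116 identifiers were higher and 541 lower (gene models 989 and 471), 107 ENSRNA and 4 mitochondrial genes were higher, and the lists had 3 apoplast, 7 biotic stimulus, 2 water deprivation and 1 cluster 1 hormone gene higher and 4 cation transport genes and 1 tubulin lower. A pseudocount of 1 gave 1525 gene models, 6 mitochondrial, 9 biotic stimulus and 2 water deprivation genes higher, and 3 biotic stimulus and 1 water deprivation gene lower. The share of higher among all past the threshold was 68.5%, and 62.6% to 71.2% under the alternatives run. The 3 scalings shifted all log2 ratios by -0.04, -0.05 and 0.03. Over the pseudocounts and scalings, 479 of 495 values of 99 named genes stayed on their side of the threshold, 14 no longer passed it, 2 newly passed it and 0 changed sign. Among those that no longer passed were ZmNRT1a under the median and total scalings (0.58 after rounding) and the potassium transporter Zm00001d020325 and the calcium-transporting ATPase Zm00001d023258 under the upper quartile scaling (both -0.57).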

Other observations

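The side of the threshold on which a gene model lay was also compared between identifiers with consecutive numbers. Of 9712 gene models whose next-numbered identifier also had at least 1 RPKM, 495 were lower after nitrate, and for 55 of these (11.1%) the next one was lower too, beside 4.79% among all 9712. Among the 1033 that were higher, 150 (14.5%) were followed by another higher one, beside 10.7% among all. The peroxidases Zm00001d022280 and Zm00001d022281 (log2 ratios -2.85 and -1.65) and the pair Zm00001d045845 and Zm00001d045846 (-1.36 and -2.31), chosen after their values were seen, have such numbers. The identifiers that follow Zm00001d022281 were lower too. They are Zm00001d022282 (-1.37), which carries no description here, and the peroxidase Zm00001d022283 (-3.20). Runs of 3 or more lower identifiers occurred 4 times, the longest of 6, and runs of 3 higher ones 10 times. Reads that are shared by near-identical neighbours may be divided between them, and their part in these runs was not tested.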
